A study of Drosophila melanogaster with 12 samples.

Results

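The genes described here are components of the Notch pathway in Drosophila, with the Notch-modifying glycosyltransferase fringe (fng) among them. A list of 10 genes by symbol was matched to the array's annotation, each gene taken as the probe set with the highest mean over all 12 arrays. Of these, 7 were measured among 11982 genes with a single symbol: fng and O-fut1, which glycosylate Notch, the ligand gene Dl, the protease gene kuz, the nuclear factors mam and H, and the target gene E(spl)mbeta-HLH. Dl stands in the annotation as Delta and was matched by its gene number. N, Ser and Su(H) were not analysed here.

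RNA came from Kc167, a Drosophila line of embryonic origin with features of plasmatocytes, the phagocytic blood cells of the fly, and was measured on Affymetrix arrays in 4 groups of 3. The PTIP group received double-stranded RNA (dsRNA) against PTIP, the Pc/ph group against polycomb and polyhomeotic, and the Pc/ph+PTIP group against all of these. The control group was cells alone, and the sources used here do not say whether these received any dsRNA. In all treated wells 1000000 cells received 15 µg of dsRNA, serum was added to 5% after 1 hour, and RNA was taken after 6 days. The same cell number, serum and days are given for control wells. The series asks how PTIP, a component of histone H3 lysine 4 methyltransferase complexes, bears on repression by Polycomb, to whose repressive complex Pc and ph belong.

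Notch is a transmembrane receptor activated by ligands on neighbouring cells, Delta and Serrate in flies. Ligand binding lets the metalloprotease Kuzbanian and then gamma-secretase cut Notch, and the released intracellular domain enters the nucleus, where it joins Su(H) and Mastermind to switch on genes such as those of the Enhancer of split complex. O-fut1 adds fucose to the EGF repeats of Notch and Fringe lengthens that sugar, which favours the response to Delta over that to Serrate. In fly blood, Notch is known for specifying crystal cells, the prophenoloxidase-carrying cells.

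The replicate 1 arrays of all 4 groups stood apart from the other 8, with upper quartiles of 8.65 to 8.95 against 9.62 to 9.74 on the log2 scale. Tests therefore carry the replicate number as a block. Pc was at 17.8 to 21.8% of the same-numbered control in Pc/ph arrays, 45.5 to 70.9% in Pc/ph+PTIP arrays and 63.3 to 124% in PTIP arrays. Ptip was at 60.6 to 87.8% in PTIP arrays, 49.8 to 111% in Pc/ph+PTIP arrays and 70.2 to 102% in Pc/ph arrays, and limma did not call it against control for PTIP (adjusted p = 0.296) or Pc/ph+PTIP (adjusted p = 0.339). Among arrays that received PTIP dsRNA, only the array labelled Pc/ph+PTIP replicate 3 had Ptip above its control. Of 12 plasmatocyte markers, 11 or 12 lay above the highest Y-linked probe set, a background reference in this line without a Y chromosome, on all 3 arrays of each group. So did 4 of 4 lamellocyte markers, 3 or 4 of 5 neuron markers and 1 or 2 of 4 crystal cell markers. For fat body it was 0 to 3 of 4, and for muscle 0 of 2. A filter at the Y-linked level kept 12120 of 18769 probe sets, so this trait is not particular to plasmatocyte markers.

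All 7 genes lay above the highest of the 7 Y-linked probe sets on all 12 arrays. At an adjusted p under 0.05 from limma with the replicate block, PTIP against control called 2 of the 7 (fng and O-fut1, both higher), where 6.52% of all probe sets were called and 2.72% called higher. Pc/ph against control called 1 (E(spl)mbeta-HLH, lower), where 1.53% of probe sets were called and 0.821% called lower. The comparison of Pc/ph+PTIP with control called 2 (fng and O-fut1, higher), beside 5.57% of probe sets in either direction and 2.71% higher. The comparison of Pc/ph+PTIP with Pc/ph called 2 (again fng and O-fut1, higher), beside 5.5% and 2.9%. Among the 12120 probe sets above the Y-linked level, fitted alone, 534 were called higher for PTIP and 162 lower for Pc/ph against control. For Pc/ph+PTIP, 514 of these were called higher against control and 554 higher against Pc/ph. None of the 7 was called between Pc/ph+PTIP and PTIP (0.032%; 1 of 7 at an unadjusted p under 0.05, beside 778 of 18769 probe sets) or for the interaction, the Pc/ph effect in PTIP cells minus that in control cells (0.186%; 2 of 7 unadjusted, beside 847 of 18769). On all 12 arrays without the block the counts were 0 for PTIP (0.272% of probe sets), 0 for Pc/ph (0.197%) and 1 for Pc/ph+PTIP against control (0.272%), 1 for Pc/ph+PTIP against Pc/ph (0.298%) and 0 for Pc/ph+PTIP against PTIP (0.032%) and the interaction (0.00533%). At an unadjusted p under 0.05 without the block, the count was 1 of 7 for PTIP against control (773 of 18769 probe sets), 0 for Pc/ph against control (429), 1 for Pc/ph+PTIP against PTIP (117) and 1 for the interaction (160). The medians of the 7 log2 differences were 0.17 for PTIP, -0.01 for Pc/ph and 0.18 for Pc/ph+PTIP against control, beside 0.03, -0.00 and 0.01 over all probe sets. Comparisons that share the control arrays are not independent of each other. Without the array labelled Pc/ph+PTIP replicate 3 the counts were 2 for PTIP (844 of 18769 probe sets), 0 for Pc/ph (206) and 2 for Pc/ph+PTIP against control (377), and 1 for Pc/ph+PTIP against Pc/ph (336).

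**Figure D1:**
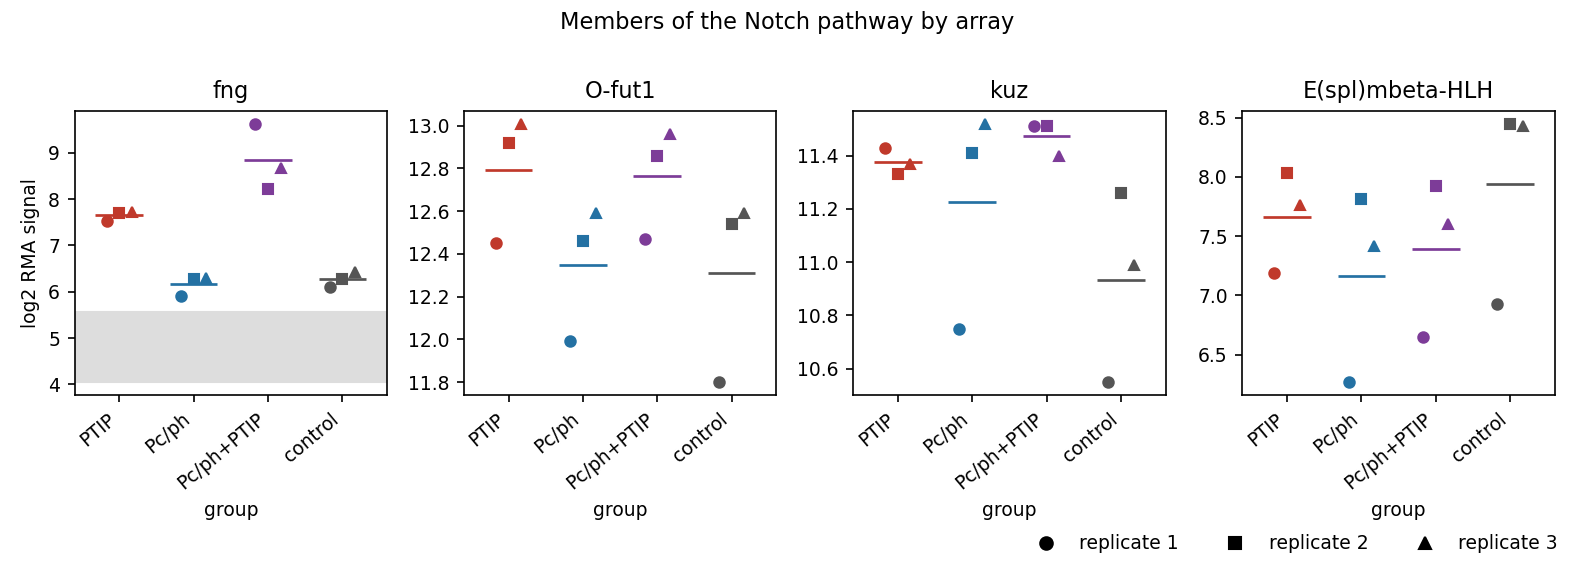
Log2 RMA signal (y axis, a separate range in each panel, not starting at 0) of fng, O-fut1, kuz and E(spl)mbeta-HLH on the 12 arrays by group (x axis), with a point per array, its shape giving the replicate number, and bars for group means. The grey band in the fng panel spans the Y-linked probe sets. The 3 Pc/ph+PTIP arrays of fng sit between 8.22 and 9.63 and its 3 control arrays between 6.10 and 6.42.

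The gene for Fringe rose in both groups that received PTIP dsRNA. On the log2 scale fng read 7.53, 7.70 and 7.73 in PTIP cells (replicates 1, 2 and 3), 5.91, 6.27 and 6.30 in Pc/ph cells, 9.63, 8.22 and 8.66 in Pc/ph+PTIP cells, and 6.10, 6.28 and 6.42 in control cells. The order of the group means was thus Pc/ph+PTIP (8.84 ± 0.72), PTIP (7.65 ± 0.11), control (6.27 ± 0.16) and Pc/ph (6.16 ± 0.22; SD, n = 3 each). The ranges of the Pc/ph+PTIP and PTIP arrays overlapped neither each other nor control, whereas those of Pc/ph and control overlapped.

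Relative to the same-numbered control, fng signal was 269, 268 and 249% in PTIP cells, 87.5, 99.6 and 92.1% in Pc/ph cells, and 1152, 383 and 474% in Pc/ph+PTIP cells. The 3 PTIP arrays lay close together in this measure, and replicate 1 of Pc/ph+PTIP was well above the other two.

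In PTIP cells fng was 2.62-fold higher than in control cells, a log2 difference of 1.39 ± 0.28 (SE, n = 3; 95% interval 0.76 to 2.01; limma adjusted p = 0.0175). This placed it 15th of 11982 genes by size of increase and 599th of 18769 probe sets by limma p. Leaving out the replicate block on all 12 arrays cannot change the size of the difference in this design, and its call was lost (limma adjusted p = 0.128). The difference was called at 1.37 with replicates 2 and 3 alone (adjusted p = 8.89e-05). It was also not called without control replicate 1 (adjusted p = 0.0825), control replicate 3 (0.0591), PTIP replicate 2 (0.0667) or PTIP replicate 3 (0.0727), with differences of 1.24 to 1.51 over all such fits. Of the 12 plasmatocyte markers 5 were lower in PTIP cells and 0 higher, beside 713 lower and 511 higher of 18769 probe sets. The summed log2 levels of these markers were 15.1 to 16.0 in PTIP and 15.4 to 16.3 in control arrays. Their part in the fng difference was not tested. In RNA from whole wells, fewer cells of a type and less RNA per cell cannot be told apart.

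In Pc/ph cells fng did not pass the test, with a log2 difference from control of -0.11 ± 0.28 (95% interval -0.73 to 0.52; limma adjusted p = 0.991).

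In Pc/ph+PTIP cells fng was 5.94-fold higher than in control cells, by 2.57 ± 0.28 on the log2 scale (95% interval 1.95 to 3.19; limma adjusted p = 0.00109), and ranked 8th among genes. Against Pc/ph cells it was 6.39-fold higher, by 2.68 ± 0.28 (limma adjusted p = 7.80e-04), and ranked 6th. Both calls held without the replicate block (adjusted p = 0.00645 and 0.00364) and in each of the 12 fits that leave out an array, where the differences ran from 2.08 to 2.91 against control and from 2.19 to 3.01 against Pc/ph. Without the array labelled Pc/ph+PTIP replicate 3 they were 2.72 (adjusted p = 0.00824) and 2.82 (adjusted p = 0.00514). Of the 12 plasmatocyte markers, 3 were lower in Pc/ph+PTIP cells than in control and 4 lower than in Pc/ph cells, with 0 higher in either case. Over all 18769 probe sets, 537 were lower and 509 higher against control, and 489 lower and 544 higher against Pc/ph. Of the 4 crystal cell markers 0 were called against control and 1 was lower against Pc/ph. The summed log2 levels in Pc/ph+PTIP, Pc/ph and control arrays were 14.9 to 16.0, 15.3 to 16.2 and 15.4 to 16.3 for plasmatocyte markers, and 7.78 to 7.87, 8.25 to 8.35 and 7.65 to 7.87 for crystal cell markers, and their part in the fng differences was not tested.

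Between the groups with PTIP dsRNA, fng was higher in Pc/ph+PTIP than in PTIP cells on every same-numbered pair, by 2.10, 0.52 and 0.93. The fitted difference of 1.18 ± 0.28 (95% interval 0.56 to 1.81) was not called after adjustment over all probe sets (limma adjusted p = 0.612). Replicate 1 carried the largest of the 3 differences. With replicates 2 and 3 alone and no block the difference was 0.72 and was called (limma adjusted p = 0.0474), and without Pc/ph+PTIP replicate 1 it was 0.70 with the block and was not called (adjusted p = 0.167).

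The interaction asks whether adding Pc/ph dsRNA did the same to fng in PTIP cells as in control cells. Pc itself was not lowered equally, at 17.8 to 21.8% of control in Pc/ph arrays and 45.5 to 70.9% in Pc/ph+PTIP arrays. By replicate, Pc was higher in Pc/ph+PTIP than in Pc/ph arrays by 1.06, 1.89 and 1.80 on the log2 scale. This limit holds for every interaction and every comparison of Pc/ph+PTIP with Pc/ph cells given here, and its part was not tested. Adding Pc/ph dsRNA to control cells gave -0.19, -0.01 and -0.12 by replicate. Adding it to PTIP cells gave the differences of 2.10, 0.52 and 0.93 above. The interaction was 2.29, 0.52 and 1.05 by replicate and 1.29 ± 0.40 in the fit (95% interval 0.41 to 2.17), positive in 3 of 3 replicates, and was not called (limma adjusted p = 0.646). Without Pc/ph+PTIP replicate 1 it was 0.80 (adjusted p = 0.106).

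**Figure D2:**
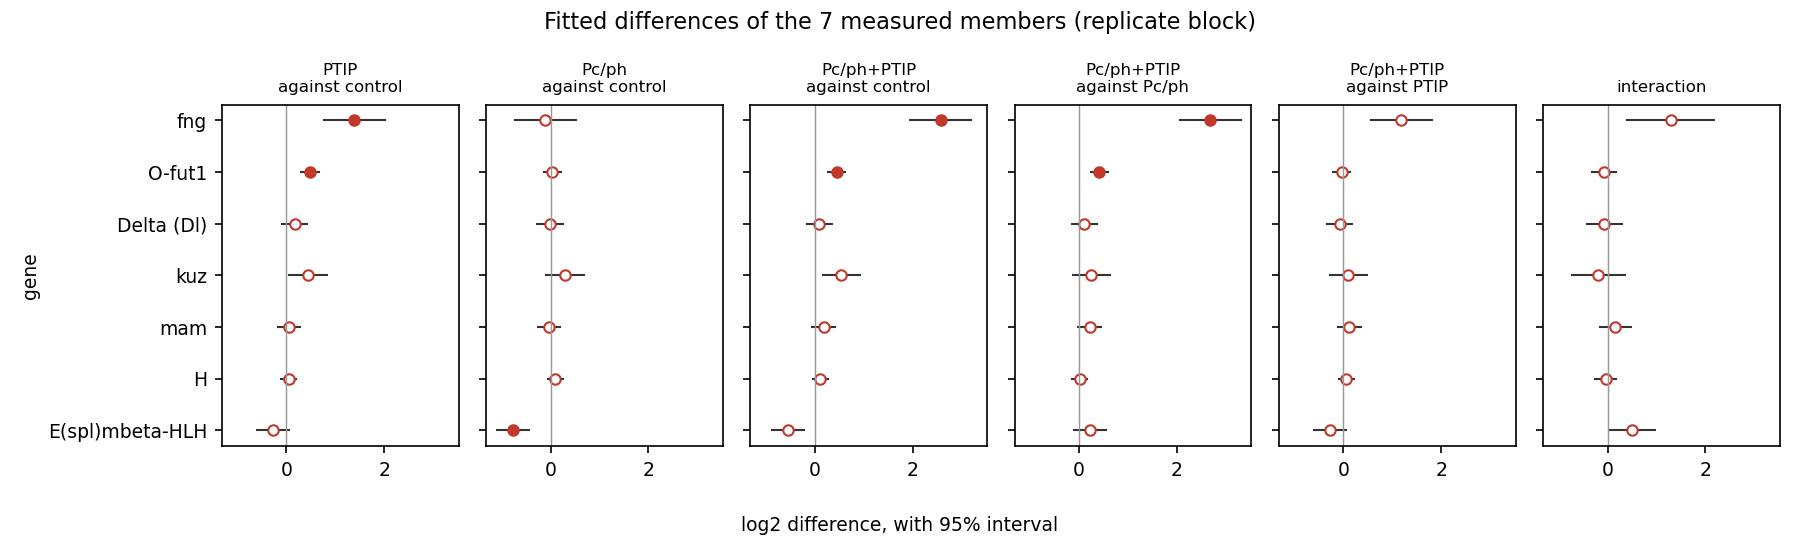
Log2 differences with 95% intervals from limma with the replicate block (x axis) for the 7 measured Notch genes (y axis), with a panel per comparison and filled points for called genes. The fng intervals for PTIP and Pc/ph+PTIP against control, 0.76 to 2.01 and 1.95 to 3.19, lie to the right of 0, and that for Pc/ph against control, -0.73 to 0.52, spans it.

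O-fut1, the fucosyltransferase that acts on Notch before Fringe does and also aids Notch folding, lay far above the Y-linked level in all groups. It read 12.45, 12.92 and 13.01 in PTIP cells, 11.99, 12.46 and 12.59 in Pc/ph cells, 12.47, 12.86 and 12.96 in Pc/ph+PTIP cells, and 11.80, 12.54 and 12.59 in control cells, on the log2 scale. The replicate 1 value was the lowest of each group, and the ranges of all groups overlap. Within replicate numbers the PTIP arrays were each above control, by 0.65, 0.38 and 0.42, and so were the Pc/ph+PTIP arrays, by 0.66, 0.31 and 0.37.

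The fitted O-fut1 differences were smaller than those of fng. They were 0.48 ± 0.08 for PTIP against control (95% interval 0.31 to 0.66; limma adjusted p = 0.00719), 0.45 ± 0.08 for Pc/ph+PTIP against control (adjusted p = 0.0104) and 0.41 ± 0.08 for Pc/ph+PTIP against Pc/ph (adjusted p = 0.0150). For Pc/ph against control the difference was 0.04 ± 0.08 (adjusted p = 0.986), and between Pc/ph+PTIP and PTIP it was -0.03 ± 0.08 (95% interval -0.21 to 0.14).

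On all 12 arrays without the block, none of these 3 O-fut1 differences was called (adjusted p = 1.00 each). With replicates 2 and 3 alone and no block all 3 were called, at 0.40 for PTIP against control (limma adjusted p = 0.00723), 0.34 for Pc/ph+PTIP against control (0.0174) and 0.38 for Pc/ph+PTIP against Pc/ph (0.00755). The PTIP call held in all 12 fits that leave out an array. The call against control in Pc/ph+PTIP cells was lost without Pc/ph+PTIP replicate 1 (limma adjusted p = 0.0545). The call against Pc/ph was lost in 5 of 12 fits, those without replicate 2 or 3 of Pc/ph or without any of the 3 Pc/ph+PTIP arrays, with adjusted p up to 0.0687.

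The ligand gene Delta was close to background. It read 6.04, 5.75 and 5.91 in PTIP cells, 5.72, 5.91 and 5.52 in Pc/ph cells, 5.93, 5.75 and 5.78 in Pc/ph+PTIP cells, and 5.62, 5.76 and 5.81 in control cells, and all groups overlapped. The highest Y-linked probe set on each array lay between 5.11 and 5.57. No difference was called, and the largest in size, PTIP against control, was 0.17 ± 0.12 (95% interval -0.09 to 0.43; limma adjusted p = 0.520). A second Delta probe set, at 4.43 to 4.86 on the 12 arrays, was not called in any of the 6 comparisons either.

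Kuzbanian, the protease of the ligand-dependent cut, is encoded by kuz, which also lay far above the Y-linked level. It read 11.43, 11.33 and 11.37 in PTIP cells, 10.75, 11.41 and 11.52 in Pc/ph cells, 11.51, 11.51 and 11.40 in Pc/ph+PTIP cells, and 10.55, 11.26 and 10.99 in control cells. The PTIP and Pc/ph+PTIP arrays all lay above the control arrays, and the Pc/ph arrays overlapped both.

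No kuz difference was called. For PTIP against control it was 0.44 ± 0.17 (95% interval 0.06 to 0.82; limma adjusted p = 0.192), and for Pc/ph+PTIP against control 0.54 ± 0.17 (95% interval 0.16 to 0.92; adjusted p = 0.112). Replicate 1 gave the largest difference in each case. By replicate the kuz differences from control were 0.89, 0.07 and 0.37 for PTIP, and 0.96, 0.25 and 0.41 for Pc/ph+PTIP. In the fit without Pc/ph replicate 1 the difference between Pc/ph+PTIP and control was called (limma adjusted p = 0.0435).

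The nuclear factors showed small differences throughout. Mastermind, the coactivator that completes the Notch transcription complex, had group means for mam of 6.32 ± 0.24 in PTIP, 6.23 ± 0.39 in Pc/ph, 6.44 ± 0.21 in Pc/ph+PTIP and 6.26 ± 0.26 in control cells (SD, n = 3 each). Its largest difference was 0.21 ± 0.10, for Pc/ph+PTIP against Pc/ph (95% interval -0.01 to 0.44; limma adjusted p = 0.343). Hairless, the adaptor that turns Su(H) into a repressor, had group means for H of 10.02 ± 0.57 in PTIP, 10.07 ± 0.63 in Pc/ph, 10.08 ± 0.60 in Pc/ph+PTIP and 9.97 ± 0.61 in control cells. The H differences were at most 0.11 ± 0.07, for Pc/ph+PTIP against control (95% interval -0.04 to 0.26; limma adjusted p = 0.508). A second probe set of each of mam and H was not called in any comparison.

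E(spl)mbeta-HLH, a basic helix-loop-helix repressor of the Enhancer of split complex and a direct target of Notch in fly tissues, fell in Pc/ph cells. It read 7.19, 8.03 and 7.76 in PTIP cells, 6.27, 7.81 and 7.42 in Pc/ph cells, 6.65, 7.92 and 7.60 in Pc/ph+PTIP cells, and 6.93, 8.45 and 8.43 in control cells. The replicate 1 array was the lowest of each group, and the ranges of all groups overlap. Within replicate numbers the Pc/ph arrays stood at 63.5, 64.1 and 49.8% of control and the Pc/ph+PTIP arrays at 82.4, 69.4 and 56.3%. The PTIP arrays stood at 120, 74.8 and 63.1%, on both sides of control.

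For Pc/ph against control the E(spl)mbeta-HLH difference was -0.77 ± 0.15 (SE, n = 3; 95% interval -1.10 to -0.44; limma adjusted p = 0.0321). It was -0.82 and called with replicates 2 and 3 alone (adjusted p = 0.00743). The call was lost on all 12 arrays without the block (adjusted p = 1.00), after quantile normalization (-0.74, adjusted p = 0.0914) and after cyclic loess (-0.77, adjusted p = 0.0542). It was also lost in 7 of the 12 fits that leave out an array, those without replicate 2 or 3 of control, any of the 3 Pc/ph arrays, or replicate 2 or 3 of Pc/ph+PTIP, with differences from -0.92 to -0.62. Beside this, 1 of 4 crystal cell markers was higher in Pc/ph cells, the summed log2 level of the 4 being 8.25 to 8.35 in Pc/ph and 7.65 to 7.87 in control arrays. The differences of these 4 markers ran from -0.12 to 1.84. The crystal cell regulator lz, at a mean of 4.83 over the 12 arrays, was not called and differed by 0.71, 0.03 and 0.11 by replicate. It lay above the highest Y-linked probe set on 1 of 3 Pc/ph arrays and on 0 of 3 control arrays. Of the 12 plasmatocyte markers 1 was higher and 3 lower in Pc/ph cells, beside 133 higher and 154 lower of 18769 probe sets. The plasmatocyte marker differences ran from -0.97 to 1.39. The part of these markers was not tested.

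In the other groups E(spl)mbeta-HLH did not pass the test. The difference from control was -0.55 ± 0.15 in Pc/ph+PTIP cells (limma adjusted p = 0.0648) and -0.27 ± 0.15 in PTIP cells (adjusted p = 0.397). With replicates 2 and 3 alone and no block, both were called, at -0.68 (adjusted p = 0.0122) and -0.54 (adjusted p = 0.0317). Pc/ph+PTIP and Pc/ph cells differed by 0.22 ± 0.15 (95% interval -0.11 to 0.55; adjusted p = 0.564), and the interaction was 0.49 ± 0.21 (adjusted p = 1.00). The PTIP difference was also called without PTIP replicate 1 (adjusted p = 0.0448), and that of Pc/ph+PTIP without replicate 1 of control (adjusted p = 0.0432), PTIP or Pc/ph.

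Genes whose levels followed fng most closely were ranked by Pearson's r over the 12 arrays after the mean of each replicate number was removed, as a description without a test. The 12 arrays share 4 groups, so the values mostly rank how alike the group pattern is. Replicate 1 weighs most in r, since fng spread most widely there, from 5.91 in Pc/ph to 9.63 in Pc/ph+PTIP cells. The 5 highest were rols (r = 0.989), an adaptor known from myoblast fusion, CG31038 (0.976), CG2310 (0.970), dome (0.965), the receptor of the JAK/STAT pathway, and gro (0.964), the Groucho corepressor that works with Enhancer of split proteins. In PTIP and Pc/ph+PTIP cells their log2 differences from control were smaller than those of fng. For CG31038 they were 1.12 in PTIP, 0.10 in Pc/ph and 1.62 in Pc/ph+PTIP cells, and for dome 0.49, 0.11 and 0.78. For rols, whose mean was 5.83 in PTIP and 5.49 in control cells, they were 0.34, -0.04 and 0.62. In control and Pc/ph cells rols (5.49 and 5.45) and CG31038 (5.42 and 5.52) lay near background. The highest Y-linked probe set on each array was at 5.11 to 5.57, which limits what the differences of these genes can show.

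Among the measured Notch genes listed at the start, O-fut1 had the highest r with fng (0.875). It was ahead of kuz (0.692) and mam (0.677), Delta (0.459) and H (0.372). E(spl)mbeta-HLH was at -0.096. The gro gene, with a higher r of 0.964, belongs to the wider list of Notch pathway genes described below. The r values of the other genes on that wider list are not given here.

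**Figure D3:**
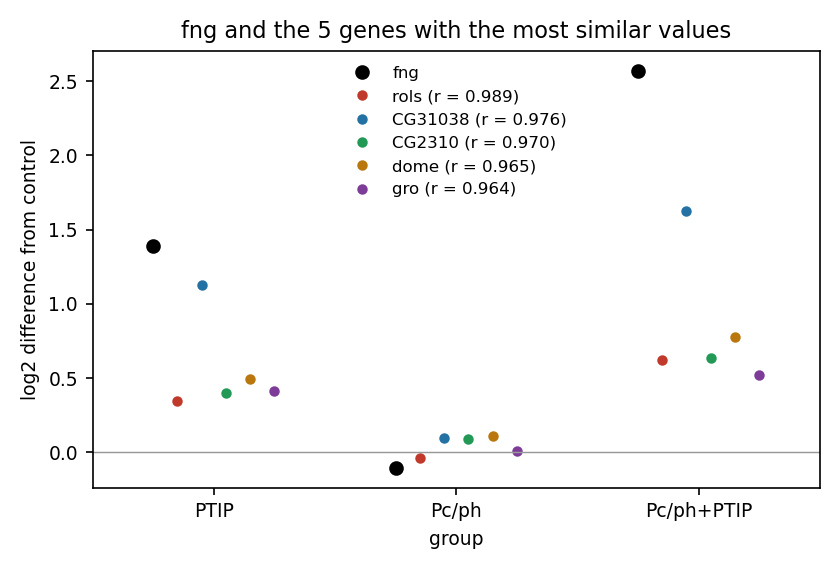
Log2 difference from control (y axis) in the PTIP, Pc/ph and Pc/ph+PTIP groups (x axis) for fng and the 5 genes whose values over the 12 arrays were most like it, with Pearson's r in the legend. In PTIP cells fng is at 1.39 and CG31038 at 1.12, in Pc/ph cells all 6 genes lie near 0, and in Pc/ph+PTIP cells fng is at 2.57 and CG31038 at 1.62.

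A wider list of 73 Notch pathway genes by role held 60 that were measured. Of these 46 lay above the highest Y-linked probe set on all 12 arrays and 6 on none. Target genes were least often above it, with 8 of 19 above it on all arrays and 5 on none, and all 14 nuclear cofactors and all 7 glycosylation genes were above it throughout. Limma with the block called 4 of 60 in PTIP cells (2 higher and 2 lower; 6.67% of the list, beside 6.52% of all probe sets) and 1 in Pc/ph cells (higher; 1.67% beside 1.53%). It called 5 in Pc/ph+PTIP cells against control (4 higher and 1 lower; 8.33% beside 5.57%) and 6 against Pc/ph (5 higher and 1 lower; 10% beside 5.5%). Over all probe sets, the shares for PTIP and Pc/ph against control are near the background. Among the 12120 probe sets above the Y-linked level, fitted alone, the calls were 1306, 287, 1088 and 1073 in the same order. Each is a larger share than over all probe sets, so the Pc/ph+PTIP shares of the list are not read as raised. Limma with the block called 0 between Pc/ph+PTIP and PTIP and 0 for the interaction (6 and 4 of 60 at an unadjusted p under 0.05, beside 778 and 847 of 18769 probe sets). On all 12 arrays without the block the only call of these in any comparison was Gp150 in PTIP cells. The medians over the list were -0.01 in PTIP, -0.01 in Pc/ph and 0.03 in Pc/ph+PTIP cells against control.

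**Figure D4:**
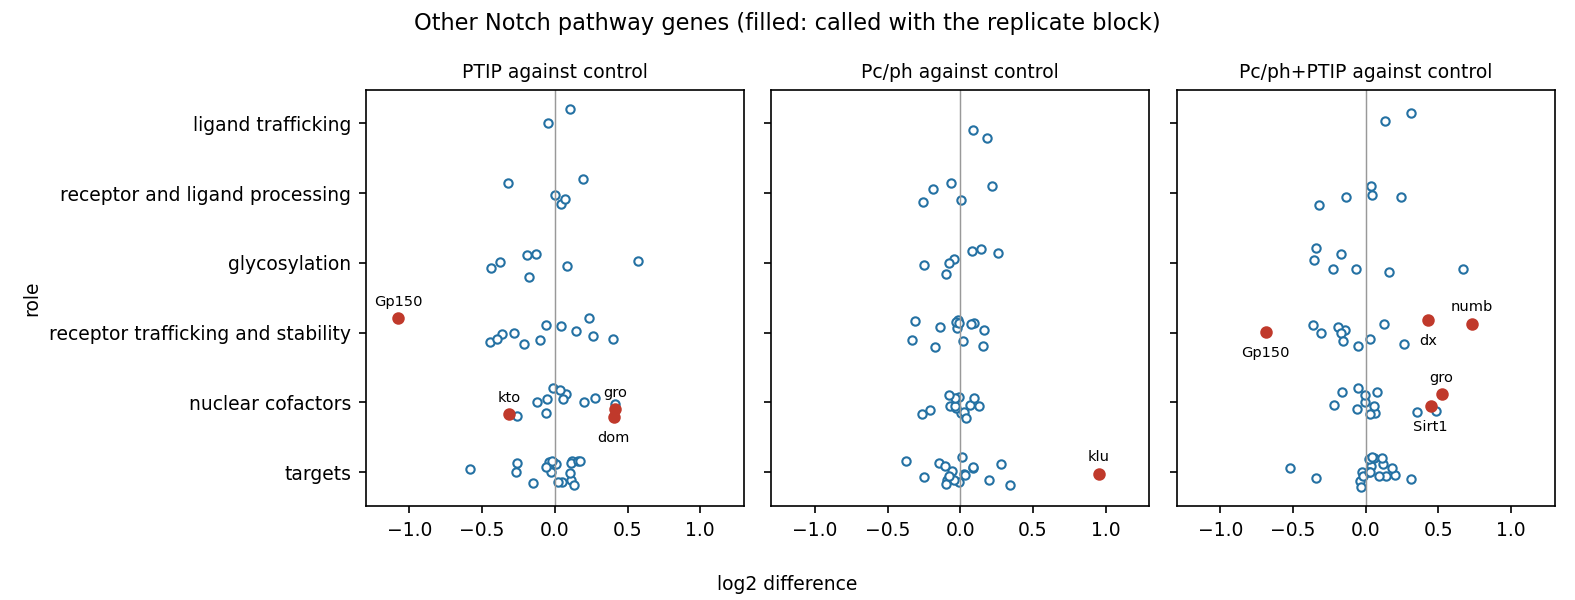
Log2 difference from control (x axis) of the 60 other measured Notch genes by role (y axis) in PTIP, Pc/ph and Pc/ph+PTIP cells, with filled points for genes called by limma with the replicate block and heights within a role spread for legibility. The calls are few, 4, 1 and 5 of 60, and Gp150 in PTIP cells has the largest difference, at -1.08.

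Among the genes of sugar transfer to Notch other than fng and O-fut1, none of 7 was called in any of the 6 comparisons. The largest difference was that of shams, a xylosyltransferase that extends O-glucose on Notch, at 0.57 ± 0.21 for PTIP (limma adjusted p = 0.160) and 0.67 ± 0.21 for Pc/ph+PTIP against control (adjusted p = 0.103). Replicate 1 gave the largest difference in both cases, the shams differences by replicate being 1.00, 0.33 and 0.37 for PTIP, and 1.53, 0.15 and 0.32 for Pc/ph+PTIP. None of 2 ligand trafficking genes and none of 5 processing genes was called either.

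Of 13 genes for trafficking and stability of the receptor, Gp150, a leucine-rich repeat membrane protein of endosomes that affects Notch signalling, fell in PTIP cells. It read 11.58, 11.85 and 11.40 in PTIP cells and 12.66, 12.74 and 12.66 in control cells, without overlap, a log2 difference of -1.08 ± 0.12 (limma adjusted p = 0.00118, and 0.0186 without the block). It was called in all 12 fits that leave out an array. In Pc/ph+PTIP cells, at 12.20, 11.96 and 11.84, Gp150 was lower than control by -0.69 ± 0.12 (adjusted p = 0.00992), which was lost on all 12 arrays without the block (0.135), without the array labelled Pc/ph+PTIP replicate 3 (0.0624), without Pc/ph+PTIP replicate 2 or without control replicate 3. Against Pc/ph cells it was lower by -0.66 ± 0.12 (adjusted p = 0.0122), lost without the block (0.197), without Pc/ph replicate 3 or Pc/ph+PTIP replicate 2 or 3.

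Genes for Numb, an endocytic inhibitor of Notch, and Deltex, a ubiquitin ligase that binds Notch, rose in Pc/ph+PTIP cells. The numb values were 7.22, 6.68 and 6.51 in Pc/ph+PTIP, against 6.38, 5.83 and 6.01 in control cells, each array above its same-numbered control. The log2 difference was 0.73 ± 0.11 (limma adjusted p = 0.00587) and was called in all 12 fits that leave out an array, though not on all 12 arrays without the block (0.761). For dx the difference from control was 0.43 ± 0.09 (adjusted p = 0.0205), and it was called in 6 of those 12 fits, namely in none that left out a Pc/ph+PTIP or control array. Against Pc/ph cells numb was higher by 0.57 (adjusted p = 0.0180) and dx by 0.45 (adjusted p = 0.0169), each called in 7 of 12 fits and in none without a Pc/ph+PTIP array or without replicate 2 or 3 of Pc/ph. Without the block these numb and dx differences against Pc/ph, and that of dx against control, had adjusted p of 1.00. All 4 were called with replicates 2 and 3 alone (highest adjusted p = 0.00541).

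Of 14 nuclear cofactors, gro rose in both groups with PTIP dsRNA. It read 9.82, 10.92 and 10.83 in PTIP cells, 10.22, 10.89 and 10.79 in Pc/ph+PTIP cells, and 9.38, 10.54 and 10.40 in control cells, each array above its same-numbered control. The differences were 0.41 ± 0.10 in PTIP (limma adjusted p = 0.0382) and 0.52 ± 0.10 in Pc/ph+PTIP cells (adjusted p = 0.0163), called in 3 and 10 of the 12 fits that leave out an array. The PTIP call held only without Pc/ph+PTIP replicate 1, Pc/ph replicate 1 or PTIP replicate 1, and the Pc/ph+PTIP call was lost without control replicate 1 or 3. Against Pc/ph cells gro was higher by 0.51 (adjusted p = 0.0170), lost without Pc/ph replicate 2 or 3. Without the block all 3 gro differences had an adjusted p of 1.00, and with replicates 2 and 3 alone all 3 were called (highest adjusted p = 0.0129).

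Domino, a chromatin-remodelling ATPase linked genetically to Notch, and Kohtalo, the Med12 subunit of Mediator, changed in PTIP cells in opposite directions. The dom difference was 0.41 ± 0.10 (limma adjusted p = 0.0446), called in 4 of the 12 fits that leave out an array (PTIP replicate 3, Pc/ph replicate 1 or 2, or Pc/ph+PTIP replicate 1). That of kto was -0.32 ± 0.08 (adjusted p = 0.0404), called in 2 of 12 (without Pc/ph replicate 1 or control replicate 3). Against Pc/ph cells dom was higher in Pc/ph+PTIP cells by 0.62 ± 0.10 (adjusted p = 0.00848), lost without Pc/ph+PTIP replicate 2 or 3. Sirt1, a deacetylase, was higher in Pc/ph+PTIP than in control cells by 0.45 ± 0.07 (adjusted p = 0.00849), called in 12 of 12. Against Pc/ph cells Sirt1 was higher by 0.35 ± 0.07 (adjusted p = 0.0247), called in 7 of 12 and not without any of the 3 Pc/ph+PTIP arrays or Pc/ph replicate 1 or 2. Without the block the adjusted p was 1.00 for dom and kto in PTIP cells, 0.773 for dom against Pc/ph, 0.488 for Sirt1 against control and 1.00 for Sirt1 against Pc/ph. The dom and kto differences in PTIP cells were not called with replicates 2 and 3 alone (adjusted p = 0.0748 and 0.116), while that of dom against Pc/ph and both Sirt1 differences were.

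Of the 19 further target genes only klu, a zinc-finger gene, was called with the block on all 12 arrays, for Pc/ph against control. It read 7.27, 7.52 and 7.57 in Pc/ph cells and 6.26, 6.69 and 6.55 in control cells, without overlap, a difference of 0.95 ± 0.20 (limma adjusted p = 0.0430, and 0.195 without the block). It was called in 3 of the 12 fits that leave out an array, those without replicate 1 of PTIP, Pc/ph or Pc/ph+PTIP. In Pc/ph+PTIP cells klu read 7.30, 6.60 and 6.52, so that replicate 1 matched the Pc/ph level and the other two the control level. Pc was at 45.5% of control in Pc/ph+PTIP replicate 1, but at 65.9 and 70.9% in replicates 2 and 3. In Pc/ph arrays it was at 17.8 to 21.8%, and the part of Pc in the klu differences was not tested. The klu differences with replicates 2 and 3 alone were called for Pc/ph against control (0.92, limma adjusted p = 4.94e-05), for Pc/ph+PTIP against Pc/ph (-0.98, adjusted p = 1.86e-05) and for the interaction (-0.91, adjusted p = 0.00194). Its direction in Pc/ph cells was thus opposite to that of E(spl)mbeta-HLH. E(spl)m3-HLH, another repressor of the Enhancer of split complex, differed from control by -0.58 for PTIP (limma adjusted p = 0.0882), by -0.37 for Pc/ph (adjusted p = 0.543) and by -0.52 for Pc/ph+PTIP (adjusted p = 0.141), none called. By replicate the E(spl)m3-HLH differences were -0.07, -0.83 and -0.85 for PTIP, 0.23, -0.54 and -0.80 for Pc/ph, and 0.12, -0.76 and -0.92 for Pc/ph+PTIP, so that replicate 1 stood apart.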

How the data were processed

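RNA of 12 arrays, 3 per group, was analysed. The values are log2 RMA signal as deposited by the authors, made with RMA per the submitters' processing notes, which also name limma; their versions are not stated there. Of 18952 probe sets, 183 controls were set aside and 18769 tested. The annotation gives 13647 a single symbol, 402 several and 4720 none.

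Groups were compared in limma 3.58.1 (R 4.3.3; lmFit and eBayes, two-sided, no variance trend) with 4 group means and the replicate number as a block in 1 fit (6 residual degrees of freedom), and Benjamini-Hochberg adjustment over all 18769 within each of 6 comparisons, called at 0.05. Same-numbered arrays correlated at 0.489 to 0.880 over 18 pairs after group means were removed; the pairing comes from the labels' numbers and mostly reflects replicate 1, since numbers 2 and 3 also correlated with each other across groups (0.396 to 0.784). The labels do not say whether replicates were separate cultures; p-values then reflect only the spread among the 12 arrays, whose number limits precision.

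The genes, roles, lists and tests were chosen with earlier results of these data known. Named genes are the members, called genes of the wider list (at most 4 higher and 4 lower per comparison), Pc and Ptip, and the 5 genes most like fng; shams and E(spl)m3-HLH were named after their values were seen. Alternatives were no block, replicate 1 against the rest as block, replicates 2 and 3 alone, and quantile and cyclic loess normalization. Others were a variance trend, a filter at the Y-linked level, other probe sets of the 7 measured members and leaving out each array. Further probe sets of wider-list genes, such as klu (2 probe sets in all) and dom (3), were not examined.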

Additional observations from a re-analysis of the deposited data

Results flagged for a closer look

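The 7 measured genes and the called genes of the wider list were searched for PTIP or Pc/ph effects of opposite sign between backgrounds in all 3 replicates. Only fng was found, and how often such a pattern occurs over all genes was not counted. The difference in fng on adding Pc/ph dsRNA was positive in PTIP cells in all 3 replicates (2.10, 0.52 and 0.93) and negative in control cells in all 3 (-0.19, -0.01 and -0.12). Neither was called in limma: 1.18 ± 0.28 in PTIP cells (adjusted p = 0.612) and -0.11 ± 0.28 in control cells (95% interval -0.73 to 0.52; adjusted p = 0.991), so the sign in control cells is not settled. The difference between the 2 was 1.29 on the log2 scale. It was tested as the interaction in limma and did not pass (adjusted p = 0.646, and 0.106 to 1.00 over the fits that leave out an array). With replicates 2 and 3 alone it was 0.79 (adjusted p = 0.0663). Pc was at 17.8 to 21.8% of control in Pc/ph arrays but at 45.5 to 70.9% in Pc/ph+PTIP arrays, and the part of this was not tested.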

How the results depend on the processing

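Directions of fng, O-fut1 and E(spl)mbeta-HLH differences that were called kept their sign under every alternative run that could change them. Those were quantile and cyclic loess normalization, replicates 2 and 3 alone, and leaving out an array of a compared group. Changing the block, the variance trend or the filter leaves the differences as they are by design, so a kept sign there shows nothing. On all 12 arrays without the replicate block the count of Notch genes called was 0 for PTIP against control (fng 1.39, adjusted p = 0.128), 0 for Pc/ph, 1 for Pc/ph+PTIP against control and 1 against Pc/ph; over the array the calls were 51, 37, 51 and 56, beside 1224, 287, 1046 and 1033 with the block, and 1 beside 35 for the interaction. Replicates 2 and 3 alone called 2630, 1099, 2205 and 2941 probe sets, and 61 between Pc/ph+PTIP and PTIP (6 with the block, 10 with a variance trend) and 264 for the interaction (53 with replicate 1 against the rest as block). They called 1 Notch gene between Pc/ph+PTIP and PTIP, fng at 0.72. Quantile normalization and cyclic loess each left 0 Notch genes called for Pc/ph, and quantile normalization gave 971 higher and 816 lower in PTIP cells, against 511 and 713. Leaving out each array gave 1 to 3 Notch genes called for PTIP, 0 to 1 for Pc/ph, 1 to 4 for Pc/ph+PTIP against control and 1 to 2 against Pc/ph, while the calls over the array ranged from 475 to 1699, 134 to 477, 377 to 1563 and 333 to 1561. For PTIP against control, fng then ranged from 1.24 to 1.51. The cause of these changes was not tested. Delta, several targets, and rols and CG31038 in control and Pc/ph cells lie close to the Y-linked level, which limits what their differences can show.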
